A study of Homo sapiens with 12 samples.

Results

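The genes described here are the protein-coding genes of human chromosome 19 whose symbol is ZNF followed by a number, 250 of the 19974 protein-coding genes annotated on chromosomes 1 to 22 and X. They were picked by symbol and position, with no measured value, and they are 250 of the 1451 protein-coding genes of chromosome 19. Of the 250, 4 are read-through or divergent transcripts by their symbol, such as ZNF816-ZNF321P. The assay was ATAC-seq, a map of open DNA made with the Tn5 transposase, and the cells were U2OS, an established human osteosarcoma line. The 12 samples form 6 groups of 2 labelled biological replicates.

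The FOXA2 set holds WT cells with no genotype named, cells with Tet-on FOXA2 (full length, FOXA2FL) and cells with Tet-on FOXA2dCTD (FOXA2 without its CTD). The SOX2 set holds a WT labelled with the SOX2 cell line and no genotype, cells with Tet-on SOX2 (full length, SOX2FL) and cells with Tet-on SOX2FOXA2CTD (SOX2 fused to the CTD of FOXA2, the fusion below). In the 4 construct groups doxycycline (500 ng/ml) was given for 4 days to switch the construct on. The treatment field of both WT groups is empty, while the protocol text shared by all samples names the same doxycycline, so whether the WT cells received it is not known. The labels do not say whether a construct line was 1 clone. Only lists of called peaks were used, so read depth is unknown. Each of the 6 FOXA2-set samples has a list, and each SOX2-set group has 1 list, taken to rest on both samples.

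Most ZNF genes of chromosome 19 encode proteins with arrays of C2H2 zinc fingers, many with a KRAB domain. KRAB recruits TRIM28, which brings in SETDB1 and heterochromatin proteins to silence transposable elements. The genes lie in clusters that grew by tandem duplication. Their 3′ exons, which encode the finger arrays, are known to carry the heterochromatin mark H3K9me3 in many cell types, while their promoters are usually active CpG-rich promoters. FOXA2 and SOX2 are pioneer factors, which can bind sites within closed chromatin.

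A promoter window is here the 1 kb on each side of the outermost annotated start of a gene, and it counts as called when a peak overlaps it by at least 1 bp. The strand needed for it was on record for 219 of the 250 genes. The following promoters, each 250 bases before to 50 bases after the start (RefSeq, GRCh38.p14, printed in the direction of the gene), show the range of behaviour described below. Capitals mark matches, on either strand, to 7 short motifs: FOXA (TGTTTAC or TGTTTGC), SOX (ACAAAG or ACAATG), SP (GGGCGG), ETS (CCGGAA), NRF1 (its palindromic core), YY1 (AAGATGGC) and CRE (TGACGTCA). Matches can overlap one another, as the YY1 and ETS matches of ZNF582 do. A match is a description of letters, not of a bound site.

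The promoters of ZNF57 (plus strand, chr19:2900678-2900977) and ZNF547 (plus strand, chr19:57363301-57363600) were called in all 9 lists and were among the strongest ZNF promoters in WT of the FOXA2 set. ZNF57 holds 4 SP matches and 1 ETS match, and ZNF547 holds 1 SP, 2 ETS and 1 CRE match.
ZNF57: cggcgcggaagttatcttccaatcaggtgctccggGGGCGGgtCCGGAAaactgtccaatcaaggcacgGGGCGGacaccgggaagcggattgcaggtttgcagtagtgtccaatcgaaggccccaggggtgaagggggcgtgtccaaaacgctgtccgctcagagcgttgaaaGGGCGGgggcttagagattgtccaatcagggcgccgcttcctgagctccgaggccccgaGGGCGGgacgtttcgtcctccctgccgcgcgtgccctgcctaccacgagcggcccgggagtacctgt
ZNF547: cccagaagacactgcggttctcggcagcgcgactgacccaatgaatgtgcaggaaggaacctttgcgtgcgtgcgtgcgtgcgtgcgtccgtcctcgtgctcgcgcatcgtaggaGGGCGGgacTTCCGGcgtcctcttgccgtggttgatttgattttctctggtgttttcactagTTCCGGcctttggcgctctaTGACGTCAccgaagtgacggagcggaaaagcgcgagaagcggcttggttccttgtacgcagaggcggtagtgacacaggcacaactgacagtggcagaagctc

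The promoters of ZNF628 (plus strand, chr19:55476367-55476666) and ZNF699 (minus strand, chr19:9309789-9310088) were the strongest ZNF promoters called in both FOXA2FL libraries and in neither WT library. ZNF699 holds 1 FOXA match, 3 SP matches and 1 NRF1 match, and ZNF628 holds 1 SP match.
ZNF628: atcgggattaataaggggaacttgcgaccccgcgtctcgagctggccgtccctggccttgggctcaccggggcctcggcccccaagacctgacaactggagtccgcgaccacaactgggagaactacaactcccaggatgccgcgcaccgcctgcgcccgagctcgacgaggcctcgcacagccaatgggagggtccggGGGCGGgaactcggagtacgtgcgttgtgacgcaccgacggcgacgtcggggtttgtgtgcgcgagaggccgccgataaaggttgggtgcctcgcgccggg
ZNF699: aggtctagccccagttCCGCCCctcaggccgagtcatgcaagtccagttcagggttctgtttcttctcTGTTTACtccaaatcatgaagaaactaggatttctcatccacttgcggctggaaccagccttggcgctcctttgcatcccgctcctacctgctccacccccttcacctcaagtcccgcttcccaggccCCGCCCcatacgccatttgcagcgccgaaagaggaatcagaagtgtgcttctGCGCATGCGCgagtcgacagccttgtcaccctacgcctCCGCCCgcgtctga

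ZNF772 (minus strand, chr19:57477517-57477816) and ZNF708 (minus strand, chr19:21329361-21329660) were among the strongest ZNF promoters called in both FOXA2dCTD libraries and in neither WT library. Each holds 1 FOXA match, with 1 SP match in ZNF772 and 2 SP and 1 ETS match in ZNF708.
ZNF772: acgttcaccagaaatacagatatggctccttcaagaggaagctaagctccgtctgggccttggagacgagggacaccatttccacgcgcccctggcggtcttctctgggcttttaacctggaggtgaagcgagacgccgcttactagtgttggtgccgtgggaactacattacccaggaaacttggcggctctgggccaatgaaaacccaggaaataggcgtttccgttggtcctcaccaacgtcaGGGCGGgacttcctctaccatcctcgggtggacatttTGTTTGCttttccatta
ZNF708: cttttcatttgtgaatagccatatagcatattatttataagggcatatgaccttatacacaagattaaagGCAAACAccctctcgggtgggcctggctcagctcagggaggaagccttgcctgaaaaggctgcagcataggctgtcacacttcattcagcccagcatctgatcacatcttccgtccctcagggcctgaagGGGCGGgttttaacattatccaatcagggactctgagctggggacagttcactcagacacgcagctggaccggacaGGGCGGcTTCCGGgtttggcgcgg

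ZNF91 (minus strand, chr19:23395422-23395721), ZNF93 (plus strand, chr19:19900696-19900995) and ZNF582 (minus strand, chr19:56393485-56393784) were called in none of the 9 lists. ZNF91 and ZNF93 encode KRAB zinc finger proteins known to bind SVA and L1 retrotransposons respectively. Their promoters were identical at 254 of 305 columns of an end-to-end alignment, gap columns counted (83.3%). ZNF708 lies in the same cluster and was identical to them at 206 of 362 and 207 of 360 columns (56.9% and 57.5%). The sequences are 300 bases each, so the alignments with ZNF708 hold more gap columns. The lower shares thus do not show that fewer paired bases were identical.
ZNF91: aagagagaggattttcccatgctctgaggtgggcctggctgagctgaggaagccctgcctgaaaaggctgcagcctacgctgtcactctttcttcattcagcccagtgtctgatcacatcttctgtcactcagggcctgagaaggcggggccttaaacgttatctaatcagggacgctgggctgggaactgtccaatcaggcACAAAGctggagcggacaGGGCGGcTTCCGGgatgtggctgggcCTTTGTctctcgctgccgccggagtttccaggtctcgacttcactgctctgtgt
ZNF93: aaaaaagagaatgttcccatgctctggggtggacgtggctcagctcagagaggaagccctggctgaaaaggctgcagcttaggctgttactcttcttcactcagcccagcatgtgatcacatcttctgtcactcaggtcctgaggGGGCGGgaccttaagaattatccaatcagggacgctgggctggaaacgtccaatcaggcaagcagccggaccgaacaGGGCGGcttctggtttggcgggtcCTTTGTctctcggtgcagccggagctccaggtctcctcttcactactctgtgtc
ZNF582: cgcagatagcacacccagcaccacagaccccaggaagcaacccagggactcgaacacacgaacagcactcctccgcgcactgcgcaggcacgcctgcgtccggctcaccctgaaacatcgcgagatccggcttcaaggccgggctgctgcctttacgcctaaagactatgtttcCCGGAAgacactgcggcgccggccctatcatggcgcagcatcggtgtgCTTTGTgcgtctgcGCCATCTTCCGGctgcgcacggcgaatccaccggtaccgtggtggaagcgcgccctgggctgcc

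Promoters of the ZNF genes were open in a minority of genes in WT of the FOXA2 set and in a majority in every other list. Of 219 promoters, 58 (26.5%) were called in WT replicate 1 and 36 (16.4%) in WT replicate 2. FOXA2FL had 150 (68.5%) and 118 (53.9%), and FOXA2dCTD had 119 (54.3%) and 152 (69.4%). Every construct library lay above both WT libraries, and the libraries of the 2 constructs overlapped. As means these were 21.4% ± 7.14 (SD, n = 2) in WT, 61.2% ± 10.3 (SD, n = 2) with FOXA2FL and 61.9% ± 10.7 (SD, n = 2) with FOXA2dCTD. In the SOX2 set 133 promoters (60.7%) were called in WT, 143 (65.3%) with SOX2FL and 131 (59.8%) with the fusion, 1 list each with no spread to compare them by. The WT of the 2 sets thus differed more from each other than the groups of the SOX2 set did, and their lists were made in different ways.

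Over all 15812 genes with a strand, the shares called in the same order of lists were 36.3% and 34.8% in WT, 62.7% and 55.1% with FOXA2FL, 48.7% and 63.0% with FOXA2dCTD, and 54.7%, 57.2% and 52.1% in the SOX2 set. The ZNF genes lay below this background in both WT libraries of the FOXA2 set and in FOXA2FL replicate 2, and above it in the other 6 lists. Against the 966 other genes of chromosome 19 they were lower in WT (means of 21.4% and 24.6% ± 3.32, SD, n = 2) and higher with FOXA2FL (61.2% and 50.3% ± 6.29, SD, n = 2) and FOXA2dCTD (61.9% and 44.8% ± 12.1, SD, n = 2). The 218 ZNF genes of other chromosomes were called more often in each list, from 45.9% in WT replicate 2 to 84.4% in FOXA2dCTD replicate 2. With 2 libraries in a group, an exact two-sided permutation test cannot go below a p of 0.333, so no test was run.

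**Figure D1:**
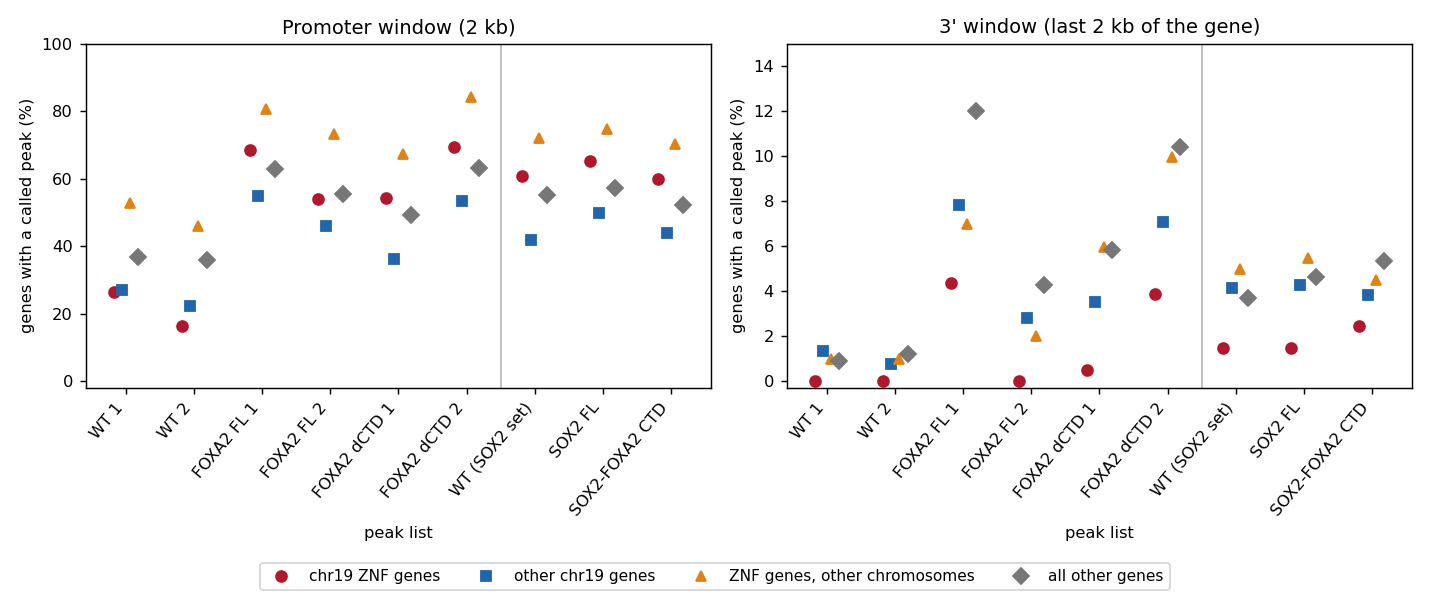
Share of genes (%) with a called peak in the promoter window (left) and in the last 2 kb of the gene body (right), 1 point per peak list and gene class, with the grey line parting the FOXA2 set from the SOX2 set. The chromosome 19 ZNF genes (red circles) rise from 26.5% and 16.4% in WT to between 53.9% and 69.4% in the FOXA2 constructs at promoters, and stay between 0% and 4.37% at the 3′ end, the lowest of the 4 classes in each list there. In both WT lists of the FOXA2 set the other classes lie within the 1.46% that a count of 0 allows, so the order there is not informative.

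The lists differ in length, from 19862 peaks in WT replicate 1 to 161136 in FOXA2FL replicate 1, and in their thresholds. When each list of the FOXA2 set was cut to its strongest 19862 peaks, ZNF promoters were called at 26.5% and 12.8% in WT, 24.2% and 21.0% with FOXA2FL and 29.2% and 41.1% with FOXA2dCTD. The FOXA2FL libraries then lay between the 2 WT libraries, and both FOXA2dCTD libraries lay above them. For other genes of chromosome 19 the same cut gave 27.0% and 17.9%, 24.0% and 24.4%, and 18.3% and 21.6%. At equal numbers the mean of FOXA2dCTD was thus 35.1% ± 8.41 (SD, n = 2) for the ZNF genes against 20% ± 2.33 (SD, n = 2) for their chromosome, while WT had 19.6% ± 9.69 against 22.4% ± 6.43 (SD, n = 2 each). Over all genes the equal-number shares were 36.3% and 30.2%, 31.5% and 33.5%, and 25.9% and 32.3%. The lists also differ in a feature that no label explains: WT replicate 2 and FOXA2FL replicate 2 hold no mitochondrial peak, and the other 4 lists hold 2 each. Among lists without such peaks the equal-number share was 12.8% in WT and 21.0% with FOXA2FL. Among lists with them it was 26.5% in WT, 24.2% with FOXA2FL, and 29.2% and 41.1% with FOXA2dCTD. FOXA2dCTD has no list without them.

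**Figure D2:**
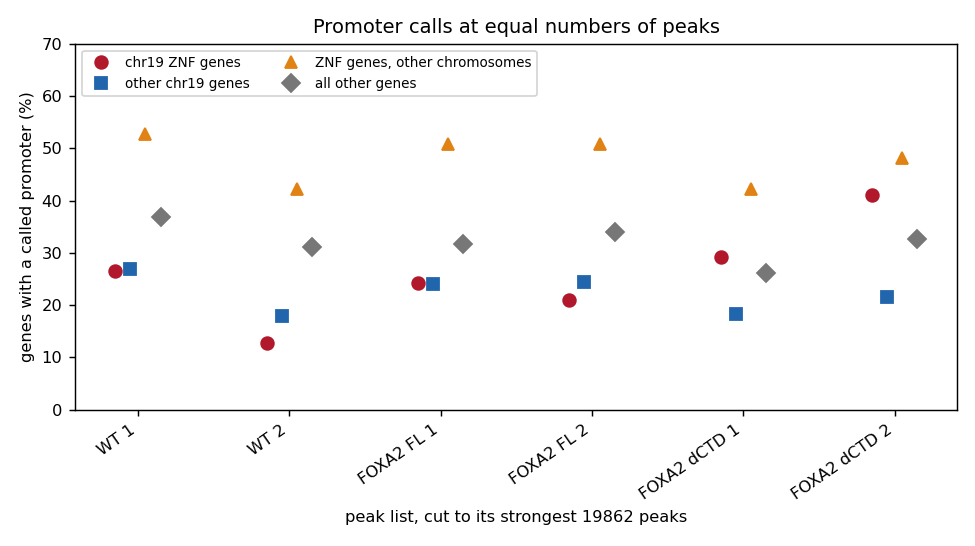
Share of genes (%) with a called promoter when each FOXA2-set list is cut to its strongest peaks, as many as the shortest list holds, 1 point per library and gene class. The chromosome 19 ZNF genes (red circles) reach 29.2% and 41.1% in the 2 FOXA2dCTD libraries, where the other chromosome 19 genes (blue squares) stand at 18.3% and 21.6%.

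The last 2 kb of the gene body, where the exon with the finger array usually lies, was almost never called. This 3′ window was read in the 206 genes whose body is at least 6 kb and whose 3′ window touches no promoter window. None of the 206 was called in WT replicate 1, WT replicate 2 or FOXA2FL replicate 2, which allows a share of up to 1.46% by counting error only. FOXA2FL replicate 1 had 9 (4.37%), FOXA2dCTD replicate 1 had 1 (0.485%) and FOXA2dCTD replicate 2 had 8 (3.88%). Most of the calls came from the longer list of each construct. In the SOX2 set 3 (1.46%) were called in WT, 3 (1.46%) with SOX2FL and 5 (2.43%) with the fusion.

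All 12615 genes with both windows gave 0.88% and 1.17% in WT, 11.6% and 4.1% with FOXA2FL, 5.6% and 10.1% with FOXA2dCTD, and 3.72%, 4.58% and 5.22% in the SOX2 set. The ZNF genes were below this background in each of the 9 lists. In both WT lists of the FOXA2 set the background lay within the 1.46% that a count of 0 allows. Those 2 lists therefore cannot show a lower share in the ZNF genes. In the same 206 genes the promoter was called in 26.7% and 17.0% (WT), 68.9% and 53.9% (FOXA2FL), 54.4% and 69.4% (FOXA2dCTD) and 61.2%, 64.1% and 60.2% (SOX2 set in the order WT, SOX2FL, fusion).

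A 3′ window was called in at least 1 list in 15 of the 206 genes and in only 1 list in 10 of these. ZNF582, whose promoter is known to be methylated in several carcinomas, was called at its 3′ window (chr19:56382751-56384750) in 6 lists, with a deposited −log10 p of 14.1 in WT, 17.0 with SOX2FL and 18.3 with the fusion in the SOX2 set. In the FOXA2 set its values were 2.02 in FOXA2FL replicate 1, 3.38 in FOXA2dCTD replicate 1 and 4.82 in FOXA2dCTD replicate 2, at percentile ranks of 3.96, 18.3 and 65.3 within those lists. ZNF582 had no promoter call in any list, so its 3′ end was open where its start was not.

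ZNF565 (chr19:36182060-36184059) was called at its 3′ window in 4 lists, with −log10 p of 15.9, 15.3 and 20.5 in the SOX2 set and 3.08 in FOXA2dCTD replicate 2. ZNF581 was called there in 4 lists, ZNF404 in 3 and ZNF69 in 2. Of the 15 genes, 7 had a promoter called in no list, and 5 of these had no call at any other listed start either. ZNF582 was the only gene whose 3′ window was called in both libraries of a FOXA2 construct.

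The same contrast was seen along the genes. In the 129 ZNF genes with both windows and a body of at least 20 kb, the most open 500-bp bin beside the start held a peak in 13.6% of genes in WT of the FOXA2 set (mean of the libraries), 52.3% with FOXA2FL and 53.5% with FOXA2dCTD. The SOX2 set had 55.0% in WT, 55.8% with SOX2FL and 56.6% with the fusion. Over the last 10 kb before the gene end no bin exceeded 0.388% in WT, 1.55% with FOXA2FL, 2.71% with FOXA2dCTD, and 1.55%, 0.775% and 1.55% in the SOX2 set. In the 8568 other genes the highest of these bins held 0.578%, 3.55%, 3.2%, 2.15%, 2.24% and 2.74%, in the same order of groups.

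**Figure D3:**
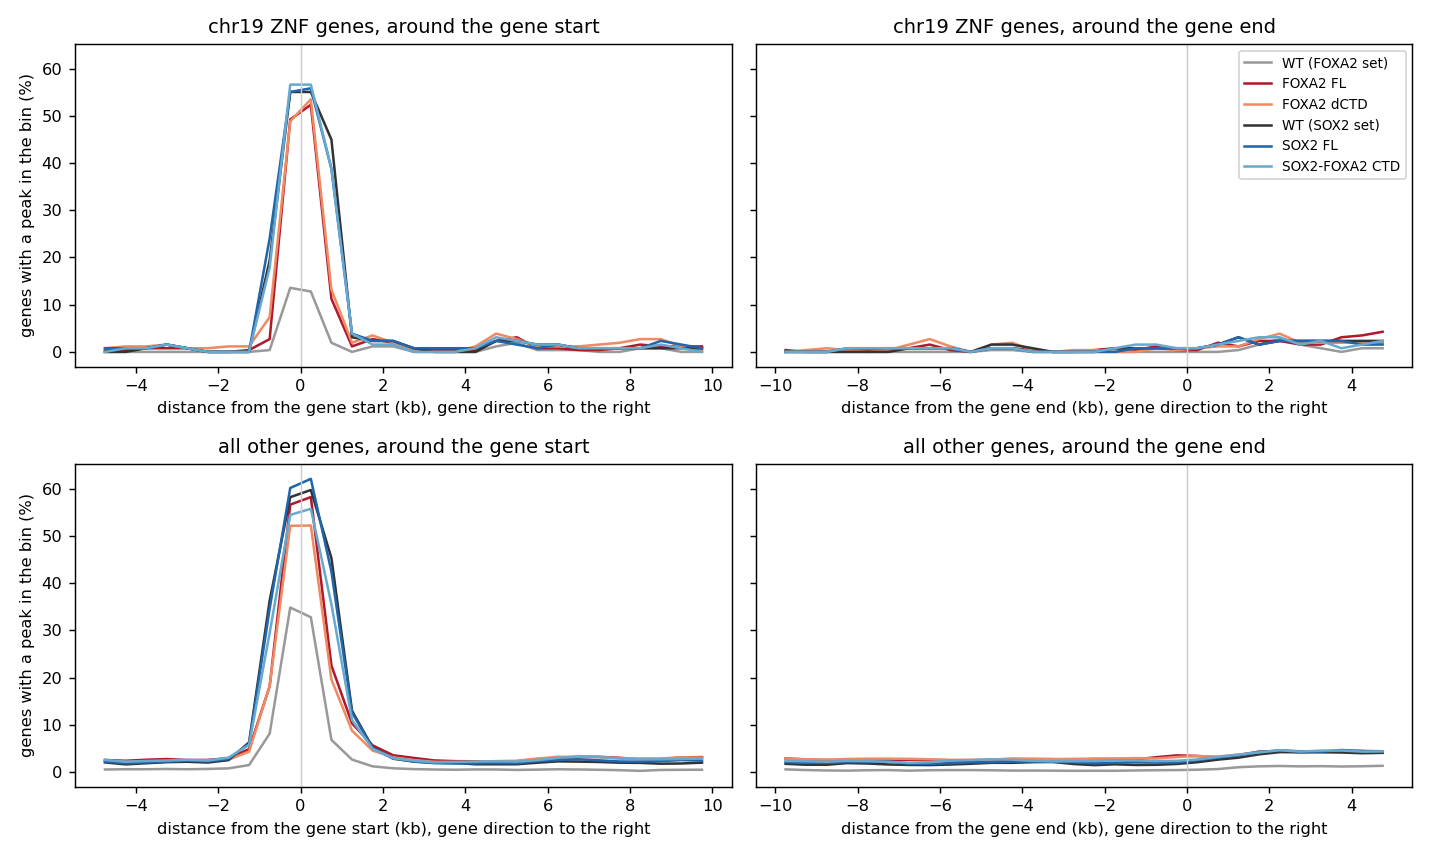
Share of genes (%) with a peak in each 500-bp bin against distance (kb) from the gene start (left) and the gene end (right), for 129 chromosome 19 ZNF genes (top) and 8568 other genes (bottom), 1 line per group (mean of 2 libraries in the FOXA2 set). In the ZNF genes the lines peak at the start, at 13.6% in WT of the FOXA2 set and from 52.3% to 56.6% in the other groups, and stay at or under 2.71% over the last 10 kb.

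Single promoters ranged from open everywhere to open nowhere. Of the 219, 18 (8.22%) were called in all 9 lists, against 21.5% of all 15812 genes with a strand, and 54 (24.7%) in none, against 27.3%. The other 147 lay in between, of which 101 in 6, 7 or 8 lists. The 18 were ZNF57, ZNF627, ZNF136, ZNF443, ZNF564, ZNF181, ZNF146, ZNF566, ZNF260, ZNF526, ZNF428, ZNF468, ZNF460, ZNF547, ZNF17, ZNF416, ZNF497 and ZNF837. In WT of the FOXA2 set 23 promoters were called in both libraries, 48 in 1 and 148 in neither. The WT libraries therefore shared fewer than the 48 on which they differed. FOXA2FL had 118 in both, 32 in 1 and 69 in neither, and FOXA2dCTD had 116, 39 and 64.

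The strongest ZNF promoters of WT were those of ZNF526, ZNF823, ZNF146, ZNF57 and ZNF547. ZNF146, a protein of zinc fingers with no KRAB domain, had a fold enrichment over the background of its library of 7.55 and 7.17 in WT, 5.2 and 11.59 with FOXA2FL and 6.96 and 6.03 with FOXA2dCTD. ZNF57 had 5.61 and 6.86, 5.83 and 12.61, and 5.3 and 6.64, and ZNF547 had 5.11 and 8.11, 6.08 and 9.89, and 6.5 and 7.77. In these 3 genes FOXA2FL replicate 2 was the highest library. In ZNF146 both WT libraries lay above the other 3 construct libraries, and in ZNF57 and ZNF547 WT overlapped each construct. These folds are the authors' and describe each peak within its own list.

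ZNF promoter peaks were weak among the peaks of WT in the FOXA2 set. By rank of −log10 p within a list, with 100 the strongest, their median stood at 42.4 and 22 in WT of the FOXA2 set, where promoters of all genes stood at 65.3 and 64.2. With FOXA2FL the medians were 83.2 and 53.6 (all genes 87.8 and 74.4), and with FOXA2dCTD 76.7 and 90.8 (all genes 76.7 and 87.4). In the SOX2 set they were 69.8 in WT, 84.4 with SOX2FL and 80.4 with the fusion (all genes 79.4, 87.0 and 80.2). The ZNF promoters stood below all promoters in 6 of the 9 lists, level in FOXA2dCTD replicate 1 and above in FOXA2dCTD replicate 2 and the fusion. Other genes of chromosome 19 stood at 59.5 and 50.5 in WT, 83.2 and 67.5 with FOXA2FL, and 75.6 and 81.3 with FOXA2dCTD. In the SOX2 set they stood at 66.4, 79.4 and 71.2, in the order above. They were below all promoters in every list, and below the ZNF genes with FOXA2dCTD and in the SOX2 set. A rank below all promoters was thus not particular to the ZNF genes. Ranks from lists of different lengths are not a measure of change between groups.

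Among the 54 promoters with no call, those of the longest genes were ZNF536 (488 kb), ZNF420, ZNF91, ZNF577, ZNF331, ZNF730, ZNF565, ZNF578, ZNF529 and ZNF560. The outermost start is not always the one used. Of the 54 genes, 20 had a call at another start listed for them and 34 had none. ZNF331, an imprinted gene that is methylated in several tumours, was called in all 9 lists at another start, and ZNF536, a neural gene with long introns, in 6. ZNF91, ZNF93, ZNF43, ZNF382, ZNF577, ZNF578, ZNF582 and ZNF404 had no call at any listed start. Counting any listed start, the shares over the 219 genes were 35.2% and 21.0% in WT, 76.7% and 62.6% with FOXA2FL, 63.0% and 79.0% with FOXA2dCTD and 68.0%, 73.1% and 68.5% in the SOX2 set. No share of all genes was computed with any listed start. These shares, and the 20 of 54 genes above, therefore have no background. ZNF274, which binds the 3′ exons of other ZNF genes and recruits SETDB1 there, was itself called in neither WT library of the FOXA2 set and in the other 7 lists. ZNF568, a KRAB gene known for a placental target, was called in 7 lists, and ZNF471 had no strand on record.

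Open and closed promoters were not spread evenly over the chromosome. Genes with gaps of at most 500 kb were chained into clusters, of which 10 hold at least 5 genes. The longest cluster, from ZNF101 to ZNF254 (chr19:19668153-24129968) beside the centromere, holds 37 genes, 29 with a strand, ZNF91, ZNF93, ZNF43 and ZNF708 among them. It was singled out after the values were seen. Its promoters were called in 0 and 0 of 29 in WT, 10 and 2 with FOXA2FL, 4 and 11 with FOXA2dCTD, and 10, 8 and 10 in the SOX2 set (WT, SOX2FL, fusion).

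The median promoter of this cluster was called in 1 list, against 6 lists for the 190 other ZNF promoters. None of the 29 was called in all 9 lists, and 13 (44.8%) were called in none, against 41 of 190 (21.6%) elsewhere. With any listed start counted, 12 (41.4%) and 22 (11.6%) had no call. In FOXA2FL replicate 1 the cluster stood at 34.5%, where the other 9 clusters ranged from 50.0% to 80.0%. It was the lowest of the 10 in every list but WT replicate 2, where another cluster was at 0% as well. The clusters share libraries and differ in sequence: the median ratio of observed to expected CpG in the promoters was 0.438 in this cluster (25 promoters with a listed start within 1 kb) and 0.798 in the other ZNF genes (165). The part of CpG content in the calls was not tested.

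**Figure D4:**
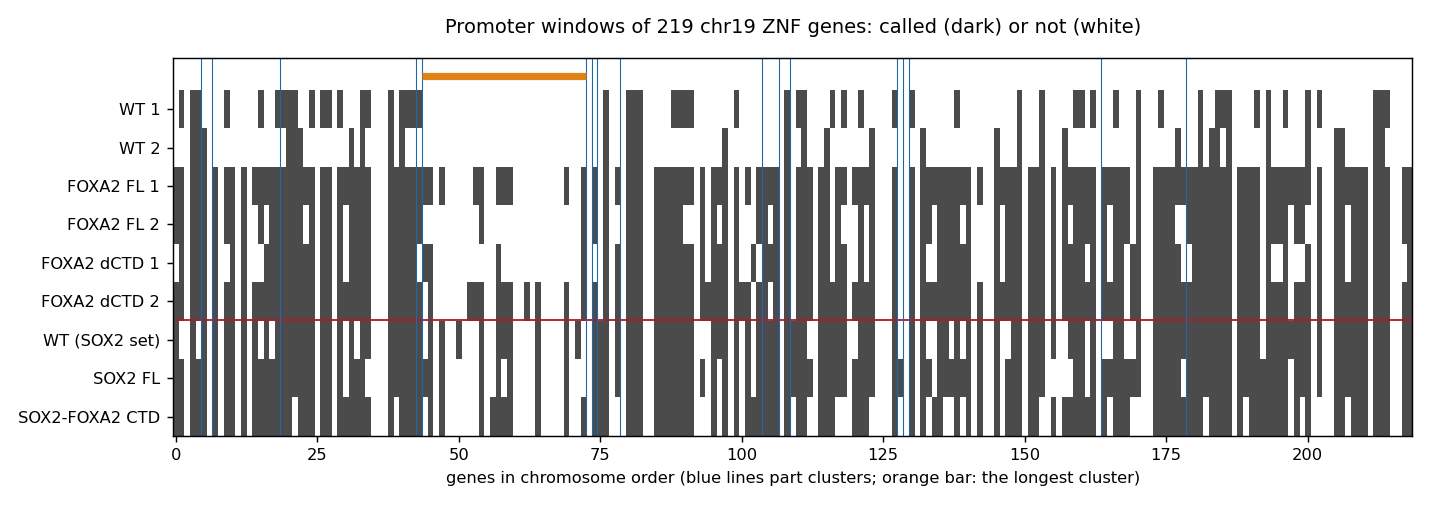
Promoter windows of the 219 ZNF genes with a strand, in chromosome order from left to right, dark where called, 1 row per peak list; blue lines part clusters and the orange bar marks the longest cluster. Under the bar, both WT rows of the FOXA2 set are empty, and at most 11 of 29 promoters are dark in any row.

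CpG content followed the number of lists in which a promoter was called. The median ratio of observed to expected CpG was 0.628 in ZNF promoters called in 0 lists (34 sequences), 0.761 in those called in 1 to 8 (138) and 0.887 in those called in 9 (18). Over all promoters the medians were 0.307 with 0 lists and 0.852 with 9. Uncalled ZNF promoters thus held more CpG than uncalled promoters at large. The ETS motif was in 54.2% of 190 ZNF promoters and in 23.3% of 14541 promoters, and the SP motif in 66.3% and 59.1%. The FOXA motif was in 4.74% of ZNF promoters and 5.61% of all, and in 4.0% of the ZNF promoters gained with FOXA2FL and 6.38% of those gained with FOXA2dCTD. The SOX motif was in 26.8% and 19.2%, and in 17.6% of ZNF promoters gained with SOX2FL. The windows are 300 bases long and were not tested against one another.

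A promoter was called gained with a FOXA2 construct when it was called in both of its libraries and in neither WT library, and lost in the opposite case. With FOXA2FL 53 of 219 ZNF promoters were gained (24.2%, against 11.9% of all genes) and none lost (all genes 0.0126%). With FOXA2dCTD 49 were gained (22.4%, against 8.27% of all genes) and none lost (all genes 0.0569%). Losses were thus rare among all genes as well. Of promoters uncalled in WT, 35.8% of the ZNF genes and 20.9% of all genes were gained with FOXA2FL, and 33.1% and 14.5% with FOXA2dCTD. ZNF genes of other chromosomes were nearer, with 28.9% of their 83 uncalled promoters gained with either construct. Both comparisons use the same WT libraries. At equal numbers of peaks 5 were gained with FOXA2FL (2.28%, all genes 1.68%) and 17 with FOXA2dCTD (7.76%, all genes 0.803%). Cutting the lists changes their thresholds as well as their lengths. At a common −log10 p of 5.43 they were 37 (16.9%, all genes 7.11%) and 28 (12.8%, all genes 2.18%). Among the lists without mitochondrial peaks, 84 promoters (38.4%, all genes 20.7%) were gained with FOXA2FL and 2 lost (0.913%, all genes 0.342%). Among the lists with them, 93 (42.5%, all genes 27.1%) were gained with FOXA2FL and 1 lost (0.457%, all genes 0.721%). There 62 (28.3%, all genes 13.3%) were gained with FOXA2dCTD and none lost (all genes 0.323%). At equal numbers of peaks, FOXA2FL gained 28 among the lists without mitochondrial peaks (12.8%, all genes 7.6%) and lost 10 (4.57%, all genes 4.38%). Among the lists with them FOXA2FL gained 16 (7.31%, all genes 7.01%) and lost 21 (9.59%, all genes 11.8%), so its losses outnumbered its gains there. FOXA2dCTD gained 23 (10.5%, all genes 1.63%) and lost 9 (4.11%, all genes 7.4%). Of the 53 promoters gained with FOXA2FL, 42 (79.2%) were already called in the WT of the SOX2 set, as were 78.9% of the promoters gained among all genes. For FOXA2dCTD it was 39 of 49 (79.6%, all genes 78.3%).

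ZNF628 had no peak in either WT library, folds of 4.46 and 10.57 with FOXA2FL and of 4.9 and 7.96 with FOXA2dCTD. In the SOX2 set it was uncalled in WT and called with SOX2FL (−log10 p 22.6) and the fusion (14.8). ZNF628 was the gene of these examples whose promoter was uncalled in all 3 WT lists and called in all 6 construct lists. ZNF699, uncalled in both WT libraries, had folds of 4.42 and 9.55 with FOXA2FL and 3.47 and 4.69 with FOXA2dCTD, but was called in WT of the SOX2 set (−log10 p 13.9). ZNF772 had folds of 5.52 and 7.84 with FOXA2FL and 5.91 and 6.98 with FOXA2dCTD and was called in WT of the SOX2 set as well (−log10 p 20). ZNF585A, uncalled in all 3 WT lists, had 4.26 and 9.55 with FOXA2FL and 6.07 and 7.02 with FOXA2dCTD. ZNF708 was called in FOXA2FL replicate 1 alone of its group, with a fold of 2.76, and had 6.07 and 5.85 with FOXA2dCTD.

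In the SOX2 set a promoter was gained when called with the construct and not in WT at a global IDR (irreproducible discovery rate) of at most 0.05. SOX2FL gained 19 ZNF promoters (8.68%, against 8.11% of all genes) and lost 9. The fusion gained 17 (7.76%, against 6.6%) and lost 19. Losses made 4.11% and 8.68% of the ZNF promoters, against 5.63% and 9.21% of all genes, so gains and losses were near the background. None of the gained ZNF promoters lacked an entry at any IDR in the WT list. Under that stricter rule 0.569% of all genes were gained with SOX2FL and 0.696% with the fusion. At shares this low, 0 of 219 promoters cannot be told apart from the background. With losses held to no entry at any IDR in the construct list, SOX2FL lost 3 (1.37%, all genes 0.512%). The fusion then lost 2 (0.913%, all genes 0.544%), so most lost promoters still had an entry. ZNF77 (−log10 p 28.9 with SOX2FL and 18.9 with the fusion), ZNF550 (24.9 and 16.2) and ZNF555 (23.4 and 17.1) were gained with both. ZNF77 was called in both WT libraries of the FOXA2 set, and ZNF555 in 1. ZNF823, among the strongest ZNF promoters in WT of the FOXA2 set, was called in WT of the SOX2 set (29.9) and with SOX2FL (43.6). It was lost with the fusion, as was the promoter of ZNF160 (36.0 and 55.6). ZNF44 was lost with SOX2FL (27.3 in WT) and called with the fusion (22).

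Regions were also compared over the gene body and 5 kb on each side, 9.05 Mb in all for the 250 genes. The peaks of a set were merged into regions, and a region was gained or lost by the same rule. FOXA2FL gained 76 regions (15.6% of 488, against 9.06% of all regions) and FOXA2dCTD gained 76 (15.6%, against 8.72%), and neither lost any (all regions 0.155% and 0.0576%). SOX2FL gained 41 of 266 regions (15.4%, against 33.9%) and lost 25 (9.4%, against 17.0%). The fusion gained 41 (15.4%, against 43.7%) and lost 37 (13.9%, against 17.1%). As a share of called regions, gains in the ZNF genes were above that of all regions with the FOXA2 constructs and below it with SOX2FL and the fusion. Per Mb of gene they were below the genes outside chromosome 19 that are not ZNF genes with every construct: 8.4 with either FOXA2 construct, against 9.71 (FOXA2FL) and 8.86 (FOXA2dCTD), and 4.53 with SOX2FL and with the fusion, against 11.9 and 15.3. Other genes of chromosome 19 had 10.2 and 7.67 with the FOXA2 constructs, above and below the ZNF genes. At equal numbers of peaks FOXA2FL gained 7 of 178 regions (3.93%, against 7.52% of all regions) and FOXA2dCTD gained 25 (14%, against 5.74%), so the share with FOXA2FL was then below that of all regions.

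A larger share of the gained regions lay at promoters in the ZNF genes than in other genes. With FOXA2FL 65.8% of the gained regions touched a promoter window, against 13.0% for genes outside chromosome 19 that are not ZNF genes, and with FOXA2dCTD 61.8% against 9.41%. With SOX2FL it was 48.8% against 6.97%, and with the fusion 43.9% against 4.56%, so with these constructs most gained regions of the ZNF genes lay outside promoter windows. Other genes of chromosome 19 stood in between, at 40.9%, 30.9%, 31.2% and 28.6% in the same order of constructs. ZNF genes of other chromosomes had 16.1%, 16.1%, 11.8% and 8.14%. The classes also differ in genes per Mb, whose part in these shares was not tested. Of the WT peaks of the FOXA2 set that lay in the ZNF genes, 66.3% and 70.7% touched a promoter window. Genes outside chromosome 19 that are not ZNF genes had 42.4% and 36.4%. Other genes of chromosome 19 were lower than the ZNF genes in both WT libraries but close to them (60.7% in replicate 1). A high share in WT was thus not particular to the ZNF genes. Windows were set only at the outermost start of genes with a strand. Other listed starts, and the starts of the 31 ZNF genes without a strand, therefore count as away from them. Away from promoter windows the ZNF genes gained 2.87 and 3.21 regions per Mb with the FOXA2 constructs, 2.32 with SOX2FL and 2.54 with the fusion. The other genes gained 8.45, 8.03, 11 and 14.6 per Mb there, and other genes of chromosome 19 gained 6.01, 5.3, 7.44 and 5.92. Gained regions in a 3′ window numbered 1 with FOXA2FL, 2 with FOXA2dCTD, 1 with SOX2FL and 2 with the fusion. Such regions were not counted in other genes, so these numbers have no background. In the longest cluster FOXA2FL gained 4 regions and FOXA2dCTD gained 5, or 2.13 and 2.66 per Mb.

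**Figure D5:**
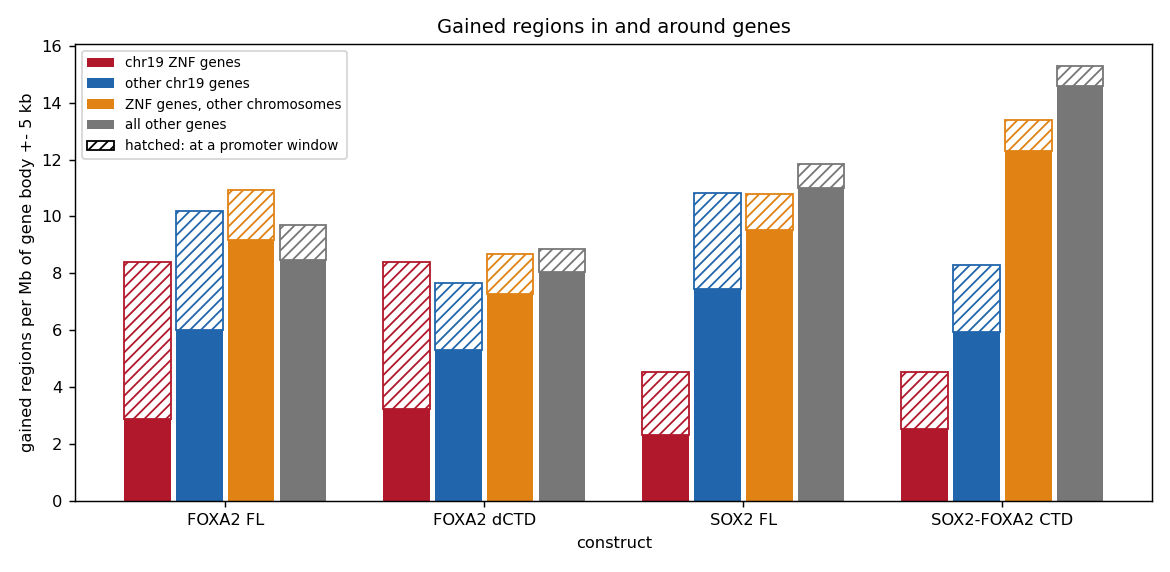
Gained regions per Mb of gene body plus 5 kb on each side, by construct and gene class; the solid part of a bar counts regions away from promoter windows and the hatched part regions at them. Solid parts of the chromosome 19 ZNF genes (red) stand between 2.32 and 3.21 per Mb, the lowest class for each construct.

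The strongest gained regions away from promoter windows lay in gene bodies. In ZNF573 a region at chr19:37750762-37751962 had no peak in either WT library, folds of 8.33 and 8.52 with FOXA2FL and 10.8 and 8.55 with FOXA2dCTD, and no call in the SOX2 set. In ZNF331 a region at chr19:53558726-53560543 had folds of 7.02 and 7.84 and of 7.83 and 7.3, again with no call in WT or in the SOX2 set. Both were open in all 4 FOXA2 construct libraries alone of the 9 lists. A region in ZNF841 at chr19:52069578-52070412 had 4.42 and 9.55 and 3.9 and 7.14, with the same pattern.

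ZNF536, the longest of the genes, had the most gained regions with each construct: 5 with FOXA2FL, 5 with FOXA2dCTD, 3 with SOX2FL (as many as ZNF581) and 4 with the fusion. It also lost 2 regions with SOX2FL and 7 with the fusion, and none with the FOXA2 constructs. Its region at chr19:30253477-30254143 had folds of 7.92 and 5.8 with FOXA2FL and 6.11 and 6.59 with FOXA2dCTD, and was called in all 3 SOX2-set lists. In ZNF574 a region at chr19:42075617-42076577 was gained with SOX2FL (−log10 p 45.3) and the fusion (23). It had an entry above the IDR limit in WT of the SOX2 set, and WT replicate 1 of the FOXA2 set called it with a fold of 7.66. A region shared by ZNF540 and ZNF571 (chr19:37594051-37595424) was gained with SOX2FL (34.0) and the fusion (19.3), also with such an entry in WT, and was called in all 4 FOXA2 construct libraries. ZNF571 had no strand on record, so its start had no window.

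Genes of the silencing pathway that KRAB zinc fingers act through were read at their promoters, 25 of 29 listed. CBX5 (heterochromatin protein HP1 alpha), DNMT1 (maintenance DNA methyltransferase), SMARCAD1, MORC2 and MPHOSPH8 (a HUSH complex subunit) were called in all 9 lists. CHD3, UHRF1, EHMT2 and ZFP57 were called in none. Of all genes with a strand, 21.5% were called in all 9 lists and 27.3% in none. Per list 17 and 10 of the 25 were called in WT, 21 and 20 with FOXA2FL, 17 and 21 with FOXA2dCTD, and 20, 21 and 15 in the SOX2 set. All genes had 36.3% and 34.8%, 62.7% and 55.1%, 48.7% and 63.0%, and 54.7%, 57.2% and 52.1%, in the same order of lists. FOXA2FL gained 3 (ATF7IP, DNMT3A and SUV39H2), FOXA2dCTD gained ATF7IP and DNMT3A, and SOX2FL and the fusion gained EHMT1. Those gains, of 25 promoters, are 12%, 8%, 4% and 4%, against 11.9%, 8.27%, 8.11% and 6.6% of all genes. SETDB1, the H3K9 methyltransferase, was called in every list but WT replicate 2, and TRIM28 had no strand on record. Of the markers of U2OS's mesenchymal origin, SPARC was called in 9 lists, RUNX2 in 7, VIM in 6 and PRRX1 in none, while PTPRC of blood cells and ALB of hepatocytes were called in none. Among the markers of other cell types, SYP of neurons was called in 8 lists, all but WT replicate 2, and NANOG of pluripotent cells in 1, FOXA2dCTD replicate 1. FOXA2 itself had a peak in its gene body in each list, which does not check a Tet-on transgene.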

How the data were processed

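ATAC-seq peak lists of 12 U2OS samples were used, 1 for each of 6 FOXA2-set samples and 1 for each of 3 SOX2-set groups. FastQC 0.10.1, Trim Galore, Bowtie2 2.4.4, SAMtools 0.1.18, MACS2 and deepTools 2.4.1 and the build hg38 are named in the submitters' processing notes, with no settings. The deposited fold enrichment of each FOXA2-set peak is a ratio over its library's background, computed by the authors. Their deposited values on a −log10 scale are p and q and, in the SOX2 set, p and IDR. They were used to rank, filter or describe peaks within a list. How reads of near-identical ZNF copies were placed is not given in the sources used here, and its part in any result was not tested.

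Peaks on chromosomes 1 to 22 and X were kept, in the SOX2 set at a global IDR of at most 0.05. Gene positions and strands came from RefSeq (GRCh38.p14); 219 of 250 genes matched a strand, and for the other 31 no promoter or 3′ window was set. Overlaps of at least 1 bp were counted with Python 3.11.15, NumPy 2.4.6 and pandas 2.3.3, and promoters were aligned end to end with Biopython 1.88. Counting of called and gained promoters and of gained regions was tested on simulated lists with planted peaks. The 3′ counts were not tested in this way, and losses only where none was planted. Promoter sequences also came from RefSeq (GRCh38.p14), and no whole-genome or protein sequence was used. The genes named in the text are those with most gained regions, the strongest gained regions and promoters, the longest genes uncalled in every list, those with most 3′ calls, the strongest WT promoters, and 10 listed by name. ZNF160, ZNF44, ZNF254 and the 18 promoters called in all lists were named after their values were seen. The members and lists were chosen with earlier results of these data known. Alternatives were other windows, thresholds, list lengths and left-out libraries.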

Additional observations from a re-analysis of the deposited data

How the results depend on the processing

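Of 135 recomputed counts for 16 results, 90 stayed within 1.5 times the reported count and 45 did not. At equal numbers of peaks (19862 in the FOXA2 set, 48142 in the SOX2 set), promoters called in every FOXA2-set list went from 22 to 9. Genes with a 3′ call went from 15 to 0 in the FOXA2 set and from 5 to 3 in the SOX2 set. Promoters gained went from 53 to 5 (FOXA2FL) and from 49 to 17 (FOXA2dCTD). Regions gained went from 76 to 7 (FOXA2FL), from 76 to 25 (FOXA2dCTD) and from 41 to 26 (fusion), and regions lost from 0 to 2 (FOXA2FL) and from 37 to 59 (fusion). At a common −log10 p of 5.43, genes with a 3′ call in the FOXA2 set fell to 0, and with FOXA2dCTD 28 promoters and 41 regions were gained. Among lists with mitochondrial peaks, FOXA2FL gained 93 promoters and 261 regions and lost 3 regions, and FOXA2dCTD lost 1. Among those without, FOXA2FL gained 84 promoters and 129 regions and lost 4 regions. With all SOX2-set entries whatever their IDR, 11 genes had a 3′ call, 1 promoter was gained with SOX2FL and 2 with the fusion, and SOX2FL lost 58 regions. With uncalled meaning no entry at any IDR, 0 and 0 promoters and 5 and 10 regions were gained with SOX2FL and the fusion, and 7 and 5 regions lost.

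Leaving out 1 library gave 22 to 50 promoters called in every FOXA2-set list (34 without WT replicate 1, 50 without WT replicate 2) and 8 to 15 genes with a 3′ call (8 without FOXA2FL replicate 1, 9 without FOXA2dCTD replicate 2). Promoters gained ranged from 53 to 84 (FOXA2FL) and from 52 to 81 (FOXA2dCTD). FOXA2FL gained 80 without FOXA2FL replicate 2 and 84 without WT replicate 1, and FOXA2dCTD gained 81 without FOXA2dCTD replicate 1 and 80 without WT replicate 1. Regions gained ranged from 86 to 242 and from 92 to 236, and regions lost from 0 to 2 and from 0 to 1. Regions gained with FOXA2FL numbered 242 without FOXA2FL replicate 2 and 117 without WT replicate 1; with FOXA2dCTD they numbered 236 without FOXA2dCTD replicate 1 and 119 without WT replicate 1. Leaving out a library can only keep or add promoter gains under the rule used. Using any listed start, chosen after seeing the data, gave 32 and 125 promoters called in every list of the FOXA2 and SOX2 sets, and 54, 50, 20 and 19 gained. No paired analysis was possible because no result comes from a test, so no fit could hold the shared replicate number as a block. Read depth is unknown, and an uncalled window may be open below a list's threshold.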

Other observations

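The 31 ZNF genes of chromosome 19 without a strand on record were read at either end of the gene. A peak lay within 1 kb of either end in 8 and 4 of them in WT of the FOXA2 set, 20 and 14 with FOXA2FL, 15 and 21 with FOXA2dCTD, and 19, 17 and 16 in the SOX2 set (WT, SOX2FL, fusion). The WT libraries of the FOXA2 set were again the lowest. Their lists are the shortest (19862 and 25088 peaks), and they were also the lowest for promoters of all genes (36.3% and 34.8%). No share of all genes was computed under the either-end rule, so these counts have no background. ZNF254, the last gene of the longest cluster, was called at its outermost start in 5 lists and at none of its listed starts, the reverse of ZNF331.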
